A study of Homo sapiens with 2 samples.

Results

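Binding of oestrogen receptor α (ERα) was examined across the SERPINA gene cluster of human chromosome 14, where 20 of the 12688 peaks of the deposited list lie. These members were chosen by position: a peak was taken when its centre fell between 94740000 and 95120000 on chromosome 14 (hg19), and the window itself was defined with the peaks known. Their number and scores are therefore a description, and no test was made on them. The cells were T47D, an established ERα-positive human breast cancer line. Steroids were withheld for 48 h, after which 10 nM 17β-estradiol was added for 45 min. The data are 1 ERα immunoprecipitation library (antibody H-20), set by the authors against 1 input library of estradiol-treated cells with no antibody step. No untreated cells were analysed here, so the values describe occupancy after estradiol and measure no response to it. As only 1 ERα library was made, no value has a replicate error, and read depth is unknown from the file.

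ERα is a nuclear receptor that, once bound by oestrogen, occupies regulatory DNA directly through oestrogen response elements or alongside other factors, often at a distance from the genes it regulates. SERPINA genes encode secreted serpins, proteins best known as inhibitors of serine proteases that trap the enzyme after it cuts their exposed reactive loop. The cluster arose by gene duplication and is most active in liver, and SERPINA1 and SERPINA3 are also expressed in many ER-positive breast tumours. Of the 5 genes examined, SERPINA1 encodes alpha-1 antitrypsin, the main inhibitor of neutrophil elastase, and SERPINA3 encodes alpha-1 antichymotrypsin, which inhibits cathepsin G. SERPINA5 encodes the protein C inhibitor. SERPINA10 encodes the protein Z-dependent protease inhibitor, which acts on coagulation factor Xa. SERPINA6 encodes corticosteroid-binding globulin, a serpin that carries cortisol and progesterone in blood and inhibits no protease.

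The gene edges used are hg19 positions supplied with the definition of the window, not values of the peak file. From left to right they are SERPINA10 at 94749650 to 94759608, SERPINA6 at 94770585 to 94789688, SERPINA1 at 94843084 to 94857029, SERPINA5 from 95047706 and SERPINA3 at 95078637 to 95090390. In the RefSeq tables, SERPINA10, SERPINA6 and SERPINA1 are on the minus strand, so each starts at its right edge. SERPINA5 and SERPINA3 are on the plus strand and start at the left. No right edge was given for SERPINA5, whose length in RefSeq (GRCh38.p14) is 11693 bp.

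A peak covered the start of 1 of the 5 genes, SERPINA1, and another ended 283 bp inside SERPINA6. The promoter windows of these 2 genes are shown. SERPINA1 was taken because the covering peak spans its window, if its start is the hg19 edge used here. SERPINA6 was taken for comparison, as the nearest other start to a peak. The windows run from 250 bases before to 50 bases after the start, 5′ to 3′ on the minus strand of chromosome 14 (RefSeq, GRCh38.p14). The SERPINA6 window stops short of the peak inside that gene, so its matches lie in no listed peak if its start is the hg19 edge used here. Capitals mark 3 kinds of match, searched on both strands: the palindrome of GGTCA and TGACC with 3 bases between them (the oestrogen response element) with at most 2 mismatches in its 10 fixed bases, a single exact GGTCA arm, and the forkhead motif TGTTTAC.
SERPINA1: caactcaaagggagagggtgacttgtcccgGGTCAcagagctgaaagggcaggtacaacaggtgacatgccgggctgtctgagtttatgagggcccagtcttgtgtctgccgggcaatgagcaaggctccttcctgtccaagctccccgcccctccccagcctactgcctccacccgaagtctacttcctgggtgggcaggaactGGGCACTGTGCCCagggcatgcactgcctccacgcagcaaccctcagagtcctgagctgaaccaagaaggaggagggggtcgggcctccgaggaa
SERPINA6: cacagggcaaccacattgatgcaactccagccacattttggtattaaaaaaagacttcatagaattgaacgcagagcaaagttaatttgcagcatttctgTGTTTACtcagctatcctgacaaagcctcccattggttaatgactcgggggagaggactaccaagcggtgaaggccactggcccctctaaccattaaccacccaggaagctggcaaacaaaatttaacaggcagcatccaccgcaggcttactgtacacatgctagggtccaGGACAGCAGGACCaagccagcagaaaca

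The SERPINA1 window holds an element with 2 mismatches, GGGCACTGTGCCC, whose first base lies 45 bases before the start, and a single GGTCA arm 220 bases before it. The SERPINA6 window holds an element with 2 mismatches that begins 22 bases after the start, and a forkhead motif, the sequence read by FOXA1, that begins 150 bases before it. Of the 35116 promoter windows in the table, 10.2% hold an element with at most 2 mismatches, 37.4% hold a single arm, which also occurs inside exact elements, and 3.42% hold the forkhead motif. An exact element is in 0.0570% of them and in 0 of the 7 windows that the table lists for the 5 genes. The AP-1 motif TGANTCA is in 7.71% of all windows and also in 0 of these 7. A single arm is also in windows of SERPINA10, SERPINA5 and SERPINA3, whose starts no peak covered, and in another SERPINA1 window. The SERPINA6 window holds none. A match describes letters and does not show where ERα sat, and the motifs other than the oestrogen response element were chosen after the sequences had been seen.

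Most ERα peaks lay around SERPINA6 and SERPINA1, and they were sparse elsewhere in the cluster. Numbered from left to right, peaks 1 to 17 lay in 92.5 kb, from 94787152 to 94879677. Within it peak 7 stood apart, with gaps of 13.7 kb before it and 19.8 kb after it. The remaining 3 peaks lay between 95065445 and 95104648, on either side of SERPINA3, with 0 inside it. By the nearest of the 5 gene starts, 10 peaks were assigned to SERPINA1, 7 to SERPINA6 and 3 to SERPINA3, and 0 to SERPINA10 or SERPINA5. This assignment is by distance alone and does not show which gene a peak acts on. Within 10 kb of a start there were 5 peaks at SERPINA1 and 3 at SERPINA6, against 0 at each of the other 3 genes. Within 1 kb there was 1 peak at each of SERPINA1 and SERPINA6.

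**Figure D1:**
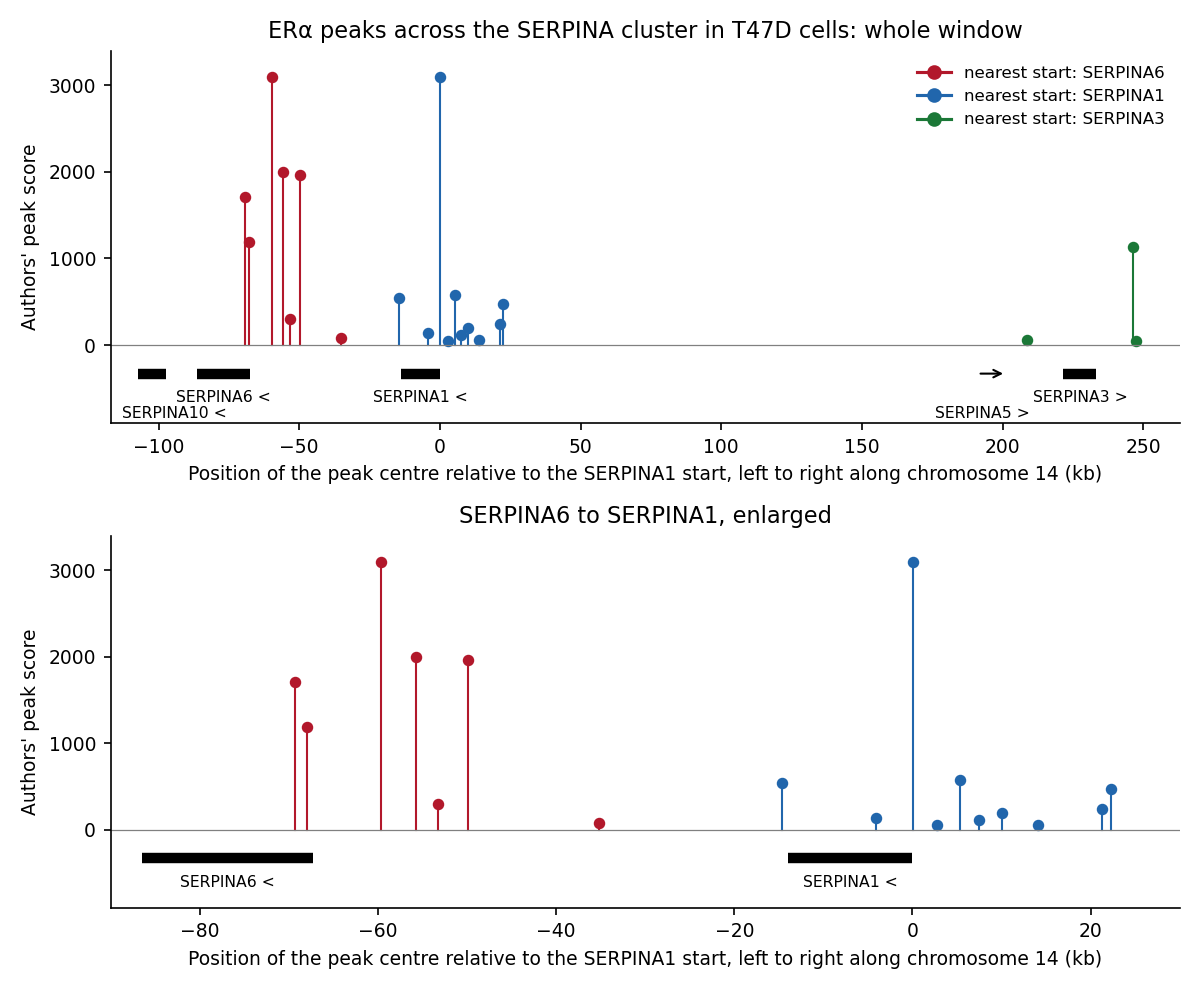
Authors' score of each of the 20 ERα peaks (vertical axis) by distance of its centre from the SERPINA1 start in kb, for the whole window (top) and for SERPINA6 to SERPINA1 (bottom). Black bars are genes, with < or > for the direction of transcription and an arrow from the start of SERPINA5, whose right edge was not given; the tallest peaks, both at 3100, stand at the SERPINA1 start and 7.69 kb upstream of SERPINA6, and no peak stands in the 186 kb between peaks 17 and 18.

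At SERPINA6 the peaks were close together and most scored high. The score is the value that the authors' peak caller gave each peak. Its scale is not stated, and it is used here only to rank peaks within the list, where the median is 128.26 and the range 50 to 3230.05. Peak 1 (94787152 to 94788326) scored 1705.56 and peak 2 (94788631 to 94789405) scored 1192.87. Both lay inside SERPINA6, with centres 1.95 and 0.67 kb downstream of its start and 304 bp between their edges. Peak 3 (94796944 to 94797803), 7.69 kb upstream of the start, scored 3100. This score is shared by 235 peaks of the list and places it between ranks 35 and 269 of 12688. Why so many peaks share this value is not stated. The rank therefore orders listed scores only, and is not shown to bound the strength of binding. Peak 4 (94801026 to 94801562) scored 1995.95 at 11.6 kb upstream, and peak 6 (94806668 to 94807702) scored 1961.88 at 17.5 kb upstream. Between them, peak 5 (94803572 to 94804079) scored 300.09. Peaks 1, 2, 4 and 6 ranked 720, 1135, 576 and 589 in the list, so 5 of these 6 peaks stood within its highest-scoring 10%, and peak 5 ranked 3552. Peak 7 (94821367 to 94822210), 32.1 kb upstream of SERPINA6 in the stretch towards SERPINA1, scored 84.62, below the median.

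Peaks 1 to 6 formed a group of 20.6 kb whose scores stood near the top of the list's clusters. When peaks whose edges lay within 10 kb were joined, chromosomes 1 to 22 and X held 9292 regions, of which 141 had 5 or more peaks. The median score of the SERPINA6 group, 1833.72, was the second highest of those 141, behind 1871.93. The median over the 141 was 207.69. This group held 5 peaks from the highest-scoring 10% of the list, and the most in any other region was 4, found in 5 regions. Both comparisons were chosen after the scores had been seen. Of the group's 5 peaks from the highest-scoring 10%, peaks 1 and 2 lay 304 bp apart. The comparison was not repeated with such close peaks joined.

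At SERPINA1 the peaks were more numerous and had a lower median score. Peak 10 (94856512 to 94857705) covered the gene's outer start, reaching 676 bp upstream and 517 bp into the gene, with its centre 0.0795 kb upstream of the start. It scored 3100, the same tied score as peak 3, and at 1194 bp it was the widest of the 20. RefSeq lists a further SERPINA1 start 2033 bp inside the outer one (GRCh38.p14), which is farther in than peak 10 reached. That inner promoter window, which is known to serve liver cells, holds 2 single arms and no element with up to 2 mismatches. Peak 9 (94852358 to 94853405), also inside the gene, scored 141.35 at 4.15 kb downstream of the outer start. Peak 8 (94841974 to 94842699) lay 385 bp beyond the far end of the gene and scored 545.70.

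Upstream of SERPINA1, 7 further peaks followed over 22.3 kb. Peaks 11 to 15 had scores of 52.06, 573.25, 111.92, 195.96 and 53.88, at 2.74, 5.38, 7.47, 10.0 and 14.1 kb from the start. Peak 12 (94861966 to 94862856) was the highest of them. Peaks 16 and 17 (94877986 to 94878532 and 94878960 to 94879677) lay 427 bp apart and scored 239.27 and 477.39. The 10 SERPINA1 peaks thus ran from 52.06 through a median of 217.62 to 3100, and the 7 SERPINA6 peaks ran from 84.62 through 1705.56 to 3100. The ranges overlapped, while the share within the highest-scoring 10% was 10.0% (1 of 10) at SERPINA1 and 71.4% (5 of 7) at SERPINA6. As a joined region, peaks 8 to 17 spanned 37.7 kb. Their number was reached by 12 of the 9292 regions, this one included, and their median score ranked 66 of the 141.

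**Figure D2:**
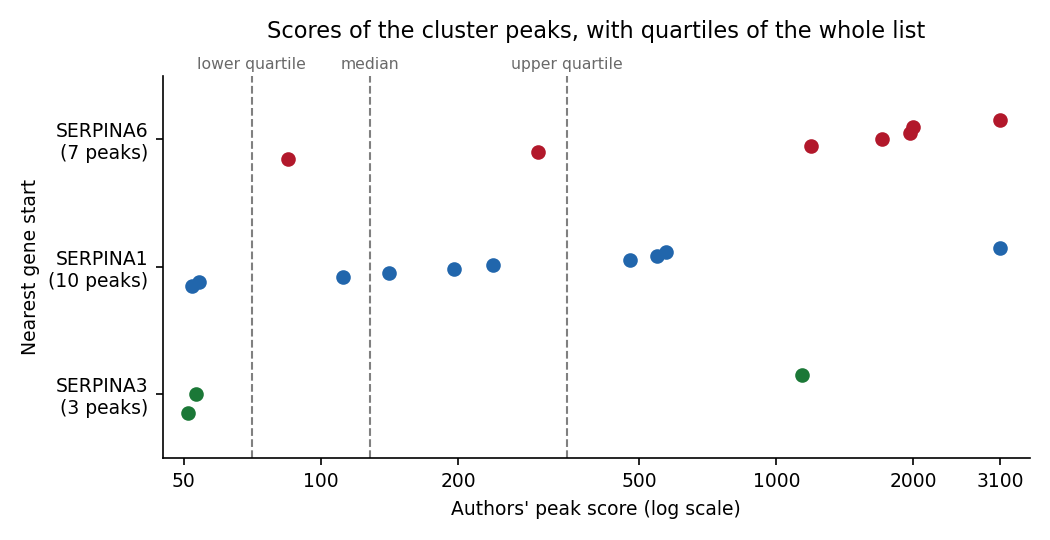
Authors' score (log scale) of each cluster peak, by the nearest gene start, with dashed lines at the quartiles of the whole list; points are spread vertically only to separate them. At SERPINA6, 5 of 7 peaks score above 1000, at SERPINA1 1 of 10 does and at SERPINA3 1 of 3 does.

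Most peaks of the SERPINA6 and SERPINA1 stretch lay upstream of their nearest start. Of these 17 peaks, 13 were upstream, 5 at SERPINA6 and 8 at SERPINA1. More of the stretch's length also lies upstream than downstream of the nearest of the 5 starts. No such share was computed over the list, so no preference for upstream sequence is shown. The 53.4 kb between the SERPINA6 start and the far end of SERPINA1 held 6 of them. In RefSeq order this interval contains SERPINA2, a transcribed pseudogene closely related to SERPINA1. Its hg19 position was not used, and no peak was assigned to it. The placement of reads that match several SERPINA copies is not described in the labels, and its part in these values was not tested.

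The middle of the cluster had no peak. The stretch from 94879677 to 95065445 measured 186 kb. It contains the SERPINA5 start, and in RefSeq order the genes between SERPINA1 and SERPINA5 are SERPINA11, SERPINA9, SERPINA12 (which encodes the adipokine vaspin) and SERPINA4 (kallistatin, an inhibitor of tissue kallikrein), with 2 non-coding RNA genes. Their hg19 edges were not used. A peak-free stretch of this length is common, since 28.3% of the 12624 intervals between neighbouring peaks on chromosomes 1 to 22 and X were as long or longer, and the median interval was 53.6 kb. No peak was listed there at a depth that is unknown, so weak binding in this stretch is not shown to be absent.

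At the right end, SERPINA5 and SERPINA3 had no peak at their starts. The nearest to both was peak 18 (95065445 to 95065965), which scored 53.29, near the lowest score of the list. It began 17.7 kb beyond the SERPINA5 start and ended 12.7 kb upstream of the SERPINA3 start. Peak 19 (95102970 to 95103693) scored 1138.09 and ranked 1192, within the highest-scoring 10%. It stood 12.6 kb beyond the far end of SERPINA3 and 24.7 kb from its start by its centre. Peak 20 (95104290 to 95104648) followed 596 bp later with a score of 51.19. In RefSeq order, the next SERPINA gene on that side is the pseudogene SERPINA13P, whose hg19 position was not used.

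SERPINA10, at the left end, had the nearest peak 27.5 kb upstream of its start, and that was peak 1 inside SERPINA6. No peak lay within SERPINA10 or between it and SERPINA6. Outside the window, the next peak to the left ended at 94495321 (score 251.95), 292 kb before peak 1, and the next to the right began at 95522619 (score 3219.84), 418 kb after peak 20. Of all intervals between neighbouring peaks, 20.3% were at least as long as the left gap and 14.7% at least as long as the right one.

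Set against the whole list, the cluster's peaks leaned towards high scores, most strongly in the SERPINA6 group. The list's median score was reached by 14 of the 20 peaks, or 70.0% (exact Clopper-Pearson 95% interval 45.7 to 88.1%, counting error only), against 50% of the list by construction. The highest-scoring 25% of the list held 10 of the 20, and the highest-scoring 10% held 7. A score of 3100 or more was reached by 2 of the 20, against 2.12% of the list. Scores under 100 were found for 5 of the 20, against 41.1% of the list. The median score was 388.74 in the cluster and 129.61 for the 464 other peaks of chromosome 14. The interval for the share above the median includes that of the list, and peaks side by side are not independent.

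Most of the cluster's peaks were also wider than the median of their score band, some of them narrowly. Their median width was 725 bp, against 538 bp for the rest of chromosome 14 and 505 bp for the whole list. Higher-scoring peaks of the list are wider, so each peak was compared with the 25% band of scores it falls in. Of the 20 peaks, 16 were wider than the median of their band, which was 400, 455, 531 and 688 bp from the lowest to the highest band. Peaks 8, 16, 17 and 19 passed it narrowly, their widths being reached by 43.2, 44.0, 44.6 and 43.8% of their bands. The highest band is broad, and 7 of the 10 cluster peaks in it stood in the list's highest-scoring 10%. Score is therefore not fully matched in that band. The widest for their bands were peak 9 (1048 bp), whose width was reached by 3.15% of its band, peak 7 (844 bp, 3.63%) and peak 13 (781 bp, 5.3%). The exceptions, narrower than their band's median, were peaks 4, 5, 11 and 20. Across the 20 peaks width and score had a Spearman correlation of 0.581, against 0.628 over the list, given as a description of peaks from 1 library.

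**Figure D3:**
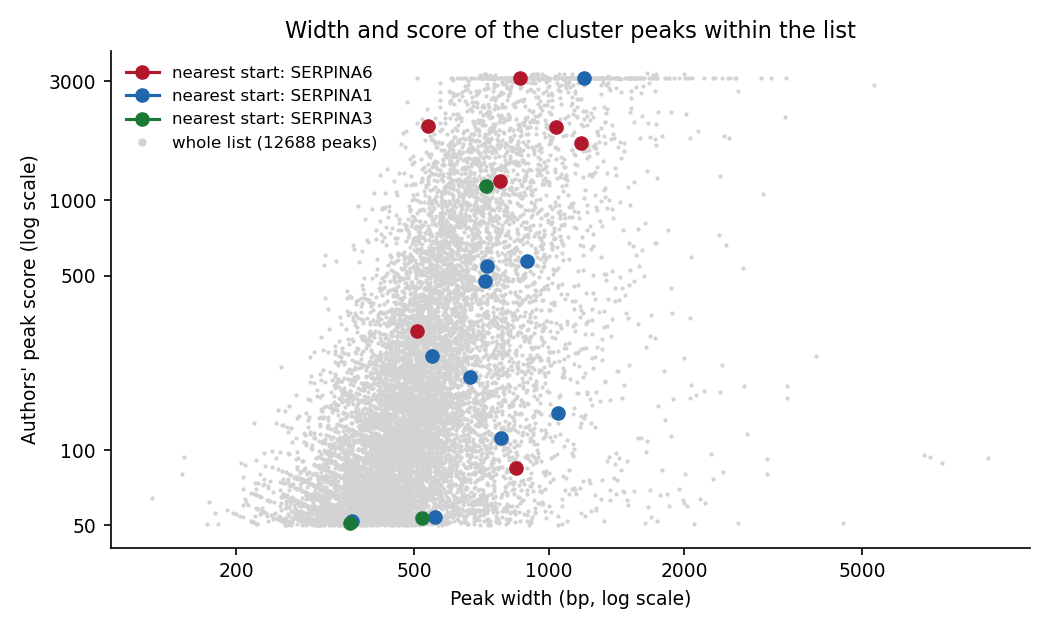
Peak width in bp and authors' score (both log scales) for the 20 cluster peaks, coloured by nearest gene start, and for all 12688 peaks in grey. Peaks 7 and 9, at 844 and 1048 bp, lie to the right of most peaks of similar score, and peak 4, at 537 bp, lies to the left of most.

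The cluster was among the denser stretches of the list, and the window was drawn with this known. It held 4.13% of the 484 peaks of chromosome 14 in 0.354% of the chromosome's length. Peaks covered 3.90% of the window, against 0.238% of chromosomes 1 to 22 and X. These shares and the windows below use whole chromosome lengths, with no stretch left out for gaps in the assembly. On chromosome 14 the first listed peak starts at 19527159. Of 7979 windows of 380 kb laid end to end over these chromosomes, 11 (0.138%) held 20 or more peaks, the highest count being 30. These values depend on where the windows fall. With the windows shifted along, 9 of 7968 (0.113%) held 20 or more and the highest count was 44. With peaks joined within 10 kb the SERPINA window held 5 regions, and 4.79% of the windows held as many. Within 10 kb of their centres, 11 of the 20 peaks had 3 or more other centres, against 8.36% of the 12647 peaks of these chromosomes. Neighbouring centres among peaks 1 to 17 were 1.06 to 20.5 kb apart, with a median of 3.64 kb. In 3 places the edges of neighbours were 304, 427 and 596 bp apart, so the count of peaks is not shown to be a count of separate binding sites. Apart from the input library, nothing here accounts for the copy number of this region in T47D cells, and its part in the peak count was not tested.

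**Figure D4:**
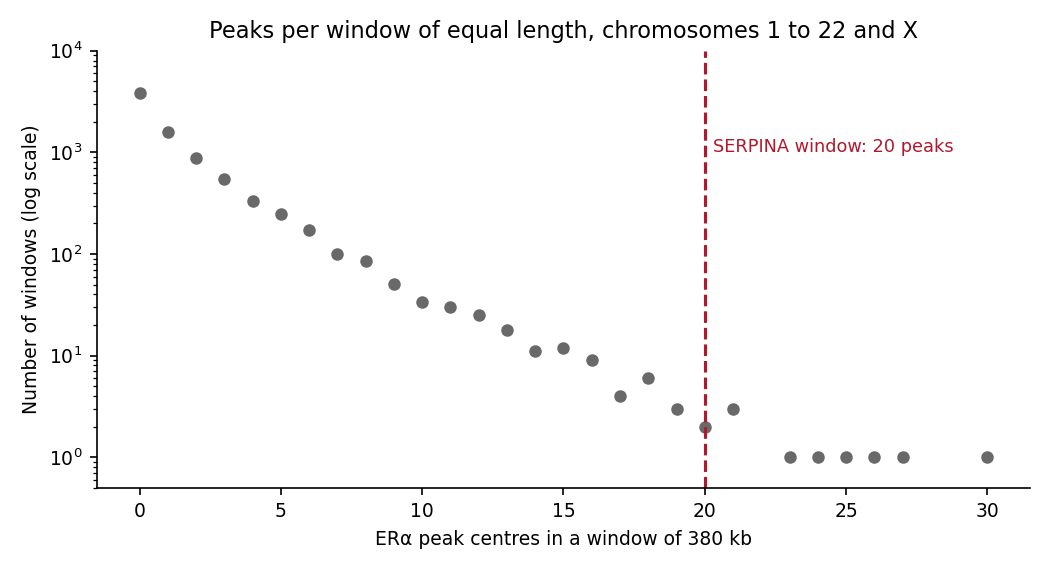
Number of 380 kb windows on chromosomes 1 to 22 and X (log scale) by the number of ERα peak centres they hold; the dashed line marks the 20 peaks of the SERPINA window. Windows with 0 peaks are the most frequent (3805), and 11 windows hold 20 or more.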

How the data were processed

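ERα was mapped by chromatin immunoprecipitation and sequencing in estradiol-treated T47D cells. The deposited file holds, for each peak, its edges and the authors' score, whose scale and calling threshold are not given in the labels or the file. Peak names carry the prefix MACS, per the file, and the submitters' processing notes name CASAVA 1.8, Bowtie 0.12.9, HOMER and hg19 with no role or order. The treatment of duplicate and multiply mapped reads is not described there. Starts were made 1-based. The last peak passed the chromosome end on 0 of 23 chromosomes of hg19, on 12 of GRCh38 and on 17 of hg18 (lengths from GenomeInfoDb 1.38.1).

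Peaks were assigned to the window by their centre and to genes by the nearest of 5 starts. Ranks refer to the whole list. All 20 peaks and 5 genes are described. The window, the genes and the comparisons were chosen with earlier results of these data known. A single ERα library allows no test across samples, so p-values are absent. No hg19 sequence was used, so no peak sequence is shown. Promoter windows came from RefSeq (GRCh38.p14) by symbol, with all 5 genes matched, and no coordinates were carried between builds. The interval is at the 95% level. Counting functions were checked on simulated data. Alternatives were score limits, joining of peaks, other distances and other windows. Calculations were run in Python 3.11.15 with pandas 2.3.3, NumPy 2.4.6 and SciPy 1.17.1, and plots were drawn with matplotlib 3.10.9.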

Additional observations from a re-analysis of the deposited data

How the results depend on the processing

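Of 16 alternatives, 10 left a count within 1.5 times the one reported, or a share within its exact binomial 95% interval, and 6 moved it further. The count of 20 peaks in the window was 14 at or above the list's median score, 18 after joining peaks within 500 bp and 18 between the outer edges of SERPINA10 and SERPINA3. It was 10 among the highest-scoring 25% of the list and 5 after joining within 10 kb. The 8 peaks within 10 kb of a start became 5 within 5 kb and 20 within 50 kb. Joining within 10 kb also put the share of equal windows with as many regions at 4.79%, against 0.138% as reported, and allowing up to 2 mismatches put the share of promoters with an oestrogen response element at 10.2%, against 0.0570% for exact elements. The moves of the counts and of the promoter share follow from how those alternatives are built. For the move to 4.79%, peaks were joined in all windows alike, but joining removes the most rows where peaks lie close together. This window was drawn with its density known, so a lower rank was likely beforehand. The move therefore shows no cause of the high rank by peak count. The share of peaks at or above the median was 70.0% with the median of chromosome 14 and 66.7% after joining within 500 bp. Its interval is wide (45.7 to 88.1%), and the median of chromosome 14, 132.15, is close to the list's 128.26. These alternatives therefore had little room to move it, and the tally of 10 is not a measure of robustness. No paired analysis was possible because the result comes from no test: a single ERα library was set against a single input library. How weak a site could be and still be listed depends on a read depth that the file does not give, and no peak has a replicate error.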
